A study of Mus musculus with 6 samples.

Results

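The 34 genes described here are p53 itself (Trp53), its inhibitors Mdm2 and Mdm4, and 31 genes that are known as targets or effectors of p53. They were taken by symbol from a count table of 55536 mouse genes, and all 34 were found in it. The list was drawn up with earlier results of these data known, so its counts are a description of these genes. The libraries came from stromal cells sorted out of injured quadriceps muscle of C57Bl/6 mice that carry a tdTomato reporter of p16, a Cdkn2a product that stops the cell cycle. All libraries share the reporter, the strain and the sort gate, which took CD29-bearing cells lacking CD45 and CD31. The 3 p16+ libraries hold tdTomato-positive cells and the 3 p16- libraries tdTomato-negative cells. Per the labels' protocols, muscle was resected at 10 weeks of age in a model of volumetric muscle loss. The defect was filled with 30 mg of polycaprolactone particles, decellularized matrix or 50 uL of saline, and muscle was taken after 1 or 6 weeks. The design text names a foreign body fibrosis model, but the filler, the harvest time and the animals behind each library are not given in the sources used here. The p-values therefore measure the spread between these samples, which may be technical. How the reporter was built is not given either.

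p53 is a transcription factor that is held at a low level by the ubiquitin ligase Mdm2 and its relative Mdm4, and its activity is set largely through protein stability and modification. When DNA is damaged or a cell is otherwise stressed, it switches on genes of growth arrest, cell death, DNA repair and metabolism, Mdm2 among them. Together with the p16 and retinoblastoma route, it is one of the established routes into senescence.

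Total counts were 35253406 to 37861713 per p16+ library and 36507067 to 39103909 per p16- library. Scaled to these totals without normalization factors, 3 counts corresponded to 0.0767 to 0.0851 CPM. All other CPM values are counts scaled to the normalised library total. Cdkn2a stood at 6.91, 8.82 and 7.74 CPM in p16+ libraries, against 2.41, 1.77 and 2.20 CPM in p16- libraries, so the count of the gene followed the sort. This count pools all transcripts of Cdkn2a and does not show that of p16 alone. The stromal genes Col1a1 and Pdgfra were abundant in both groups, at 37831 and 866 CPM in p16+ and 20414 and 1018 CPM in p16-. The stromal list as a whole summed to 152021 to 159476 CPM in p16+ and 89829 to 107424 CPM in p16-, with 5 of 8 genes higher and 0 lower by edgeR (1 lower at an unadjusted p under 0.05, and 0 by DESeq2 and limma-voom), and Pdgfra (log2 fold change -0.23, adjusted p = 0.102) was not among the 5. The endothelial list, in which Pecam1 encodes CD31, summed to 68.9 to 96.5 CPM in p16+ and 174 to 207 CPM in p16-, with 3 of 8 tested members higher and 1 lower in p16+. Pecam1 was at 7.07, 5.01 and 8.12 CPM in p16+, against 2.56, 3.35 and 4.11 CPM in p16-. The lower one was Tek, with means of 49.2 in p16+ and 168 CPM in p16-, the largest part of the sum in both groups. The list's log2 fold changes had a median of 1.00 and 6 of 8 were positive, against the direction of the sum. Without p16+ replicate 3 the number higher was 1. On principal components the groups separated on the first axis, at -26.08, -43.04 and -42.8 in p16+ and 48.16, 25.81 and 37.96 in p16-. On the second axis p16+ replicates 2 and 3 lay far apart, at 38.22 and -46.65.

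A p53 binding site is a pair of decamers, each with a C and a G flanking its central bases, and the sequences of the members show where such a decamer stands close to a gene's start. RefSeq promoter windows of 300 bases (250 before to 50 after the start, GRCm38.p6) were matched by symbol for 26 of the 34 members. An exact p53 decamer, whose pattern is the same on both strands, was found in 9 of the 26 genes (34.6%), against 9.55% of all 27025 genes with a window. The members were listed as known targets or effectors of p53, so this share is a description of the list. The genes with a window also include genes outside the 15903 tested for expression, while all members were tested. By the test described below, the decamer was in 3 of the 9 members with a window that were higher in p16+ (33.3%). It was in 1 of the 4 that were lower (25%) and in 5 of the 13 that did not pass (38.5%). A pair of decamers with at most 1 base between them and at most 2 mismatches in all was found in 3 of 26 (11.5%), Ccng1, Bax and Polk, against 2.09% of all. The windows of Ccng1 (chr11:40755237-40755536, minus strand) and Bax (chr7:45466849-45467148, minus strand) are shown because both genes were higher in p16+ and hold the pair. Capitals mark the pair, which starts 195 bases before the start of Ccng1 and 212 before that of Bax, with 1 mismatch in each. The pair of Polk, a gene that did not pass the test, also has 1 mismatch and lies 231 bases before a start. Its window is not shown in full.
Ccng1: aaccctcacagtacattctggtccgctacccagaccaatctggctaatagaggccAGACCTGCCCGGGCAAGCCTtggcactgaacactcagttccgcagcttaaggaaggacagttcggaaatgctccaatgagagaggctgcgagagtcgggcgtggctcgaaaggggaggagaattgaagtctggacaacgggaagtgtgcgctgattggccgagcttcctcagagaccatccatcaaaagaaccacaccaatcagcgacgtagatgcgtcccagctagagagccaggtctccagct
Bax: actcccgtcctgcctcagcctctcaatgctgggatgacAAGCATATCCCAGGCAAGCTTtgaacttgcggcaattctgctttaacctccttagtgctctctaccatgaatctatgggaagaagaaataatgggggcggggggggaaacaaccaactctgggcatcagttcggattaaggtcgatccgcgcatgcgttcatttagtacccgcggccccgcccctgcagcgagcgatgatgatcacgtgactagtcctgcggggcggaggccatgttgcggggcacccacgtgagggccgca

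The other exact decamers, with their own coordinates, are given with 10 bases on either side and the decamer in capitals, to set members that were higher, lower or not past the test side by side. A match is a description of letters in the window, and its absence from a window says nothing of p53.
Aen (higher in p16+, chr7:78895937-78895946, plus strand): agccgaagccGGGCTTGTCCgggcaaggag
Gadd45a (lower in p16+, chr6:67037438-67037447, minus strand): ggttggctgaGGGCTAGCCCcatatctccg
Mdm2 (not past the test, chr10:117710935-117710944, minus strand): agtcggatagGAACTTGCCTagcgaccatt
Trp53 (not past the test, chr11:69580284-69580293, plus strand): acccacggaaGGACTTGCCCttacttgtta
Sesn1 (not past the test, chr10:41887266-41887275, plus strand): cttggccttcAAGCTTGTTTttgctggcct
Polk (not past the test, chr13:96519409-96519418, minus strand): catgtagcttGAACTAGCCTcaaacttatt
Ei24 (not past the test, chr9:36797335-36797344, minus strand): cgtgcggcccGGGCATGCCCagtgtgggcg

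Setting p16+ against p16- libraries addresses how p53 pathway transcripts differ between stromal cells sorted for and against the reporter. Of the 34 members, 13 were higher in p16+ and 4 were lower, while Trp53 and Mdm2 did not pass. The larger rises, of about 2-fold and more, were in Psrc1 (4.98-fold), Phlda3 (2.12-fold), Pmaip1 (2.09-fold) and Ddit4 (2.01-fold). The receptor genes Eda2r and Tnfrsf10b stood at 1.90-fold and 1.86-fold, while the receptor gene Fas did not pass. The 4 genes that fell did so by less, from 0.24 for Mdm4 to 0.50 for Sertad1 on the log2 scale. None of the 4 DNA repair members and none of the 3 secreted and detoxification members passed edgeR's threshold. At an unadjusted p under 0.05, 3 of the DNA repair members and 1 of the secreted and detoxification members were lower and 0 were higher. DESeq2 called 1 DNA repair member lower, and limma-voom called 0 in both groups.

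These calls are from edgeR's quasi-likelihood test with Benjamini-Hochberg adjustment over all 15903 genes tested and a threshold of 0.05. Over all genes tested 8.69% were higher and 8.04% lower in p16+, against 38.2% and 11.8% of the members. The median log2 fold change was 0.12 over the members, all 34 of which passed the filter on low counts, and -0.01 over all genes tested. In 13 members every p16+ library lay above every p16- library, and in 7 every p16+ library lay below, against 16.6% and 16.5% of all genes tested. With library sizes alone in place of normalization factors, 11 members were higher and 7 lower (61.1% of the calls higher in place of 76.5%), and over all genes the share of calls that were higher was 36.0% in place of 52.0%. The number of members called lower was 2 without p16+ replicate 2 and also 2 without p16+ replicate 3. In sorted bulk samples, a change in the number of cells of a type and a change in RNA per cell cannot be told apart.

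**Figure D1:**
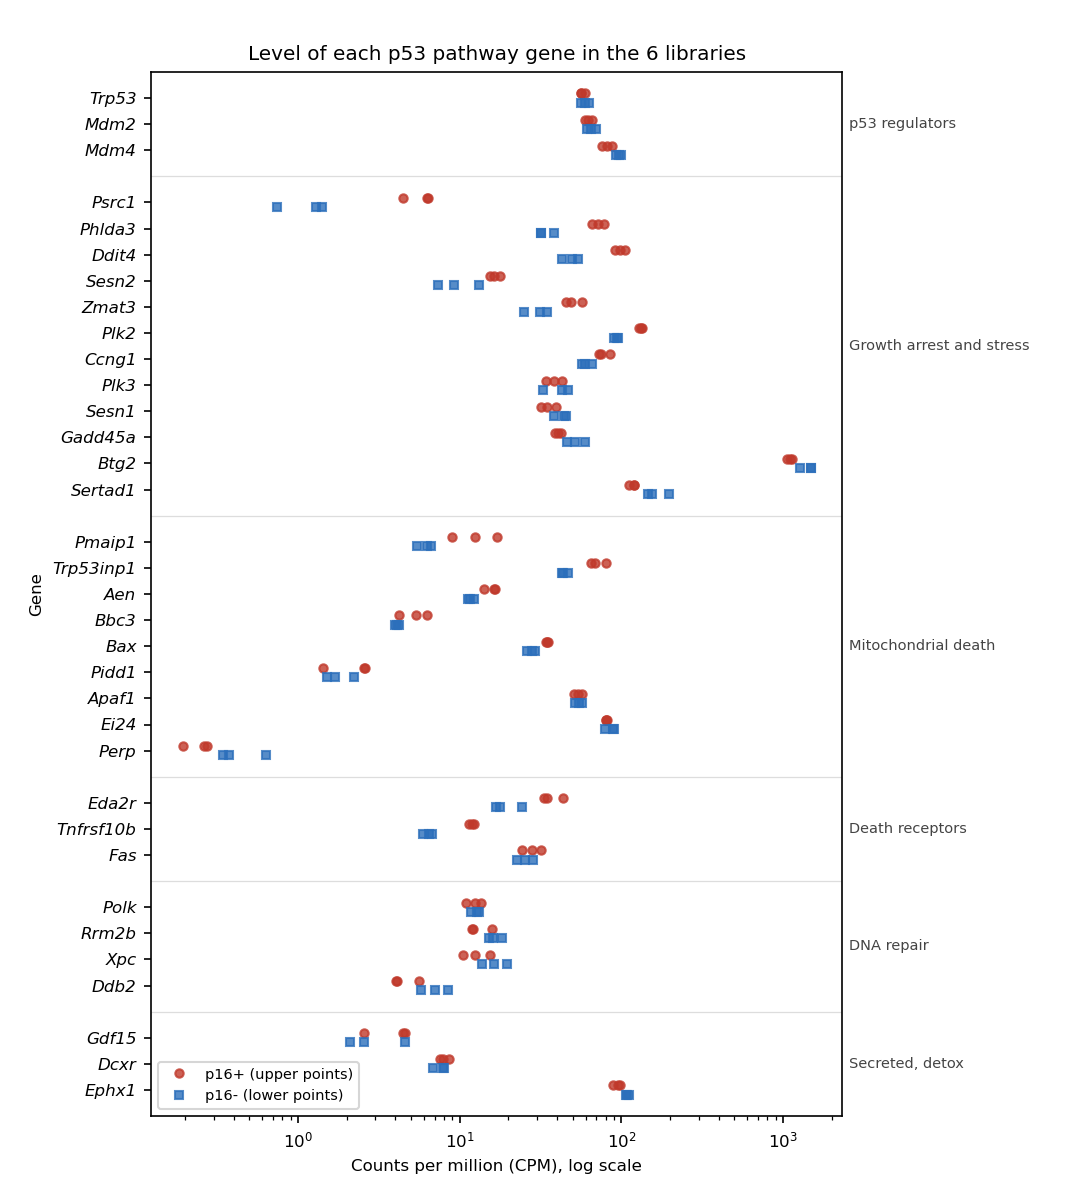
Level of each of the 34 genes in every library, in CPM on a log axis, with genes grouped by role. Red circles are the 3 p16+ libraries and blue squares below them the 3 p16- libraries; the groups separate for Psrc1, Phlda3 and Ddit4 and overlap for Trp53 and Mdm2.

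Of the 3 regulators at the head of the pathway, 0 were higher by edgeR, DESeq2 or limma-voom, or at an unadjusted p under 0.05 in edgeR. Trp53 (chromosome 11, 69580359 to 69591873) had 55.9, 59.2 and 56.2 CPM in p16+, against 59.2, 63.3 and 56.5 CPM in p16- (log2 fold change -0.06 with SE 0.08, adjusted p = 0.665). Mdm2 (chromosome 10, 117688875 to 117710758), whose protein degrades p53 and whose gene is a p53 target, had 59.2, 65.3 and 61.9 CPM in p16+, against 64.8, 70.0 and 61.4 CPM in p16- (log2 fold change -0.07 with SE 0.08, adjusted p = 0.614). The groups overlapped in both genes. Mdm4, which blocks the activation domain of p53, had 75.6, 82.0 and 87.0 CPM in p16+, against 96.8, 99.4 and 92.1 CPM in p16-. The p16+ libraries were all below the p16- libraries, and its adjusted p lay just under the threshold (log2 fold change -0.24 with SE 0.08, adjusted p = 0.049). Its call was lost whenever a library was left out, with adjusted p from 0.0547 (without p16+ replicate 3) to 0.193 (without p16+ replicate 1).

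Among the 12 genes of growth arrest, stress and metabolic feedback, 7 were higher and 3 lower in p16+. Phlda3 (chromosome 1, 135766119 to 135769136), whose protein competes with Akt for membrane lipids, had 71.7, 77.9 and 66.1 CPM in p16+, against 31.6, 38.2 and 32.0 CPM in p16- (log2 fold change 1.08 with SE 0.10, adjusted p = 1.19e-06). Ddit4 (chromosome 10, 59949669 to 59951834), an inhibitor of the growth kinase mTORC1 that also responds to hypoxia and glucocorticoids, had 91.0, 105 and 97.6 CPM in p16+, against 49.2, 54.2 and 43.1 CPM in p16- (log2 fold change 1.00 with SE 0.09, adjusted p = 1.69e-06). In both genes the lowest p16+ library was well clear of the highest p16- library. Sesn2, which encodes a sestrin that restrains mTORC1 when leucine is scarce, had 15.3, 17.8 and 16.3 CPM in p16+, against 9.17, 13.1 and 7.34 CPM in p16- (log2 fold change 0.74 with SE 0.18, adjusted p = 0.00863). Its p16- libraries were spread more widely than its p16+ libraries, with coefficients of variation of 7.86% in p16+ and 29.7% in p16-. Sesn1, of the same family, was at 39.5, 32.0 and 34.7 CPM in p16+, against 38.3, 45.5 and 44.0 CPM in p16- (log2 fold change -0.27, adjusted p = 0.0904). Sesn1 passed as lower when p16+ replicate 1 (adjusted p = 0.0457) or p16- replicate 1 (0.0339) was left out, and also with library sizes alone (adjusted p = 0.0273).

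Zmat3, which encodes an RNA-binding zinc finger protein that acts on splicing and mRNA stability, had 48.9, 57.3 and 45.6 CPM in p16+, against 25.1, 34.7 and 31.3 CPM in p16- (log2 fold change 0.74 with SE 0.12, adjusted p = 0.000353). The polo-like kinase gene Plk2, known for its part in centriole duplication, had 132, 134 and 129 CPM in p16+, against 89.6, 95.7 and 94 CPM in p16- (log2 fold change 0.50 with SE 0.07, adjusted p = 0.000138), with the libraries of each group close together. Its relative Plk3, a stress-responsive kinase gene, was at 38.1, 34.1 and 42.7 CPM in p16+, against 46.7, 32.9 and 42.7 CPM in p16-, with overlapping groups (adjusted p = 0.687). Ccng1, the cyclin G1 gene with the decamer pair shown above, had 72.9, 85.4 and 74.7 CPM in p16+, against 59.4, 65.8 and 56.7 CPM in p16- (log2 fold change 0.36 with SE 0.09, adjusted p = 0.00871). Its call was lost when p16+ replicate 2 (adjusted p = 0.0697) or p16- replicate 3 (0.058) was left out.

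Psrc1 (chromosome 3, 108383839 to 108388231), whose protein binds spindle microtubules, had the largest fold among the members at a low level. Its counts were 161, 230 and 217 in p16+, against 30, 51 and 52 in p16-, or 4.43, 6.26 and 6.34 CPM in p16+ and 0.737, 1.29 and 1.40 CPM in p16- (log2 fold change 2.31 with SE 0.30, adjusted p = 5.3e-05). The groups lay far apart. A list of 12 markers of dividing cells, drawn up after these values were seen, summed to 44.7 to 51.8 CPM in p16+ and 20.2 to 35.3 CPM in p16-. Of that list 2 members, Top2a and Cdk1, were higher, and all 12 had a positive log2 fold change. The part of dividing cells in the value of Psrc1 was not tested.

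In the group of growth arrest, stress and metabolic feedback, the 3 members that fell were Btg2, Sertad1 and Gadd45a. Btg2 (chromosome 1, 134075170 to 134079120), an antiproliferative gene whose protein recruits the deadenylase that shortens mRNA tails, had 1132, 1109 and 1055 CPM in p16+, against 1486, 1276 and 1488 CPM in p16- (log2 fold change -0.37 with SE 0.08, adjusted p = 0.00545). Per kilobase of exon it was the most abundant member, at 400 CPM per kb in p16+ and 516 CPM per kb in p16-. Sertad1, whose protein binds the kinase Cdk4 and E2F complexes, had 119, 112 and 120 CPM in p16+, against 197, 146 and 154 CPM in p16- (log2 fold change -0.50 with SE 0.10, adjusted p = 0.00216). Gadd45a, which encodes a sensor of damage that binds PCNA and stress kinase pathways, had 42.2, 39 and 40.6 CPM in p16+, against 59.4, 46.2 and 51.6 CPM in p16- (log2 fold change -0.37 with SE 0.10, adjusted p = 0.0141). In each of these genes p16- replicate 2 was the lowest p16- library and still above every p16+ library. The adjusted p of Gadd45a was 0.0696 without p16+ replicate 2, 0.0561 without p16+ replicate 3 and 0.0588 without p16- replicate 1, and 19.1% of its exonic length is overlapped by E230016M11Rik on the opposite strand. A list of 17 genes that respond to tissue handling, such as Fos, Egr1 and Atf3, summed to 25961 to 27528 CPM in p16+ and 30330 to 34591 CPM in p16-, with 0 called higher and 8 called lower by edgeR. At an unadjusted p under 0.05, 2 of them were higher, and DESeq2 and limma-voom called 0 higher. In that list 1 was called higher without p16- replicate 1 and also without the filter on low counts. Whether the handling response bears on Btg2, Sertad1 and Gadd45a was not tested.

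**Figure D2:**
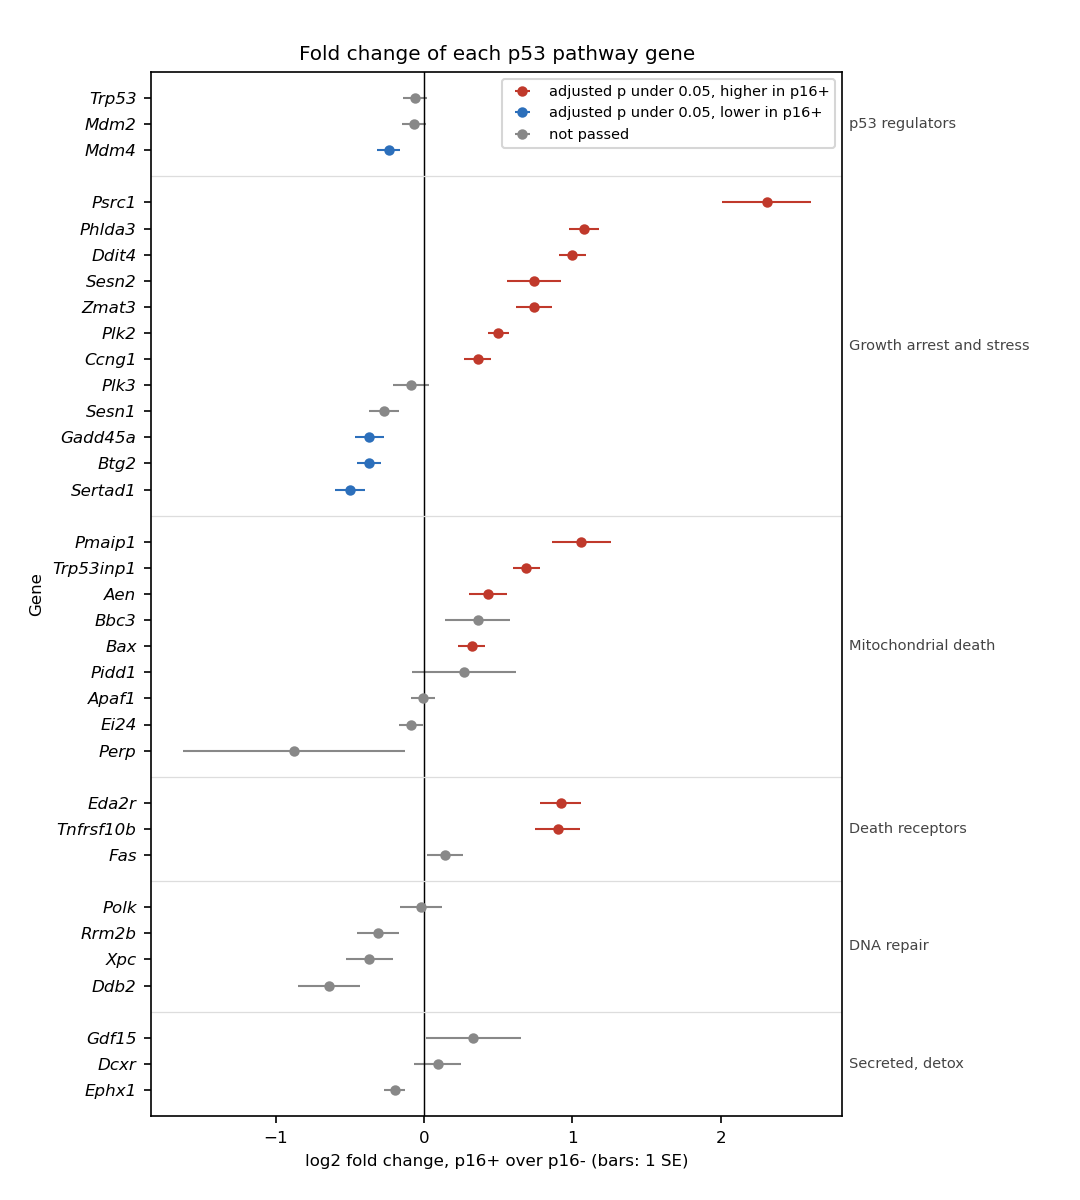
Log2 fold change of each gene, p16+ over p16-, with bars of 1 standard error from the edgeR fit, grouped by role. Red points are the 13 genes higher in p16+, blue points the 4 lower, and grey points the 17 that did not pass; all 4 DNA repair genes are grey and lie at or left of 0.

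Of the 9 cell death genes other than receptors, labelled mitochondrial death in the figures, 4 were higher and 0 lower in edgeR. Also 0 were lower at an unadjusted p under 0.05 and by DESeq2 and limma-voom. The label is loose, as the group also holds genes of nuclear, endoplasmic reticulum and junction proteins. Pmaip1, which encodes the BH3-only protein Noxa, had 8.97, 12.5 and 16.9 CPM in p16+, against 6.29, 6.61 and 5.46 CPM in p16- (log2 fold change 1.06 with SE 0.20, adjusted p = 0.00164). The p16+ libraries were widely spread, with a coefficient of variation of 31.1%, the highest among members in that group. Trp53inp1, which encodes a p53-induced nuclear protein active in death and autophagy, had 65.2, 80.0 and 69.1 CPM in p16+, against 42.7, 46.4 and 43.8 CPM in p16- (log2 fold change 0.69 with SE 0.09, adjusted p = 4.48e-05). Bax, the pore-forming effector, had 34.3, 34.5 and 35 CPM in p16+, against 29.1, 25.9 and 28.0 CPM in p16- (log2 fold change 0.32 with SE 0.09, adjusted p = 0.0248), and 12.2% of its exonic length is shared with Gm45808. Aen, an apoptosis-enhancing nuclease gene, had 16.6, 14.2 and 16.4 CPM in p16+, against 12.3, 11.6 and 11.2 CPM in p16- (log2 fold change 0.43 with SE 0.13, adjusted p = 0.0313).

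The groups did not overlap in these 4 genes, yet the calls of Bax and Aen were near the threshold. The adjusted p of Bax was 0.06, 0.0732 and 0.0787 without p16+ replicates 1, 2 and 3, and 0.0879 and 0.07 without p16- replicates 2 and 3. That of Aen was 0.104 and 0.103 without p16+ replicates 1 and 3, and 0.0742 and 0.115 without p16- replicates 2 and 3. With library sizes alone it was 0.0833 for Bax and 0.0748 for Aen. The other BH3-only gene, Bbc3, which encodes Puma, had 6.27, 5.39 and 4.18 CPM in p16+, against 4.23, 3.98 and 4.11 CPM in p16- (log2 fold change 0.36, adjusted p = 0.313). Its p16+ replicate 3 lay within the range of the p16- libraries.

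Apaf1, the scaffold of the apoptosome, averaged 53.9 ± 3.16 in p16+ and 54.3 ± 2.7 CPM in p16- (mean ± SD, n = 3 each; log2 fold change -0.01 with SE 0.08, adjusted p = 0.949). Ei24, an endoplasmic reticulum protein gene linked to autophagy, averaged 80.6 ± 0.486 in p16+ and 86.0 ± 6.10 CPM in p16- (adjusted p = 0.483). Pidd1, whose protein builds the complex that activates caspase-2, had 2.59, 1.42 and 2.54 CPM in p16+, against 1.7, 1.51 and 2.23 CPM in p16- (adjusted p = 0.685). Perp, which encodes a junction protein of epithelia, was the least abundant member, with counts of 7, 10 and 9 in p16+, against 14, 25 and 14 in p16-. Its p16+ libraries were all below its p16- libraries, but the error was wide (log2 fold change -0.88 with SE 0.75, adjusted p = 0.496).

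Of the 3 receptor genes, labelled death receptors in the figures, 2 were higher. The label is loose for Eda2r. Eda2r (chromosome X, 97333840 to 97377216), the receptor gene of ectodysplasin A2, had 33.2, 43.5 and 34.8 CPM in p16+, against 17.7, 24.4 and 16.7 CPM in p16- (log2 fold change 0.92 with SE 0.14, adjusted p = 0.000251). Tnfrsf10b (chromosome 14, 69767472 to 69784411), the mouse receptor gene of the death ligand TRAIL, had 11.4, 12.2 and 11.9 CPM in p16+, against 6.42, 6.71 and 5.91 CPM in p16- (log2 fold change 0.90 with SE 0.15, adjusted p = 0.000512). Replicate 2 was the highest library of its group in both genes and both groups. Fas, the receptor gene of Fas ligand, had 24.4, 31.6 and 28.0 CPM in p16+, against 25.3, 28.3 and 22.5 CPM in p16-, and the groups overlapped (log2 fold change 0.14 with SE 0.12, adjusted p = 0.491). Markers of leukocytes, which the gate against CD45 would remove, summed to 291 to 346 CPM in p16+ and 210 to 234 CPM in p16-, with 6 of 14 tested higher and 0 lower. Lyz2, with means of 168 in p16+ and 124 CPM in p16-, was the largest part of the sum in both groups. All 14 tested had a positive log2 fold change. Ptprc, the CD45 gene, was at 9.77, 8.17 and 5.37 CPM in p16+, against 4.60, 5.93 and 4.14 CPM in p16-, so it was low but detected in every library. Pericyte and smooth muscle markers summed to 1787 to 1813 CPM in p16+ and 1199 to 1505 CPM in p16- (5 of 8 higher, 0 lower), and glial markers to 24.4 to 33.2 CPM in p16+ and 45.7 to 82.4 CPM in p16- (0 of 4 higher, 3 lower). Markers of satellite cells and muscle fibres summed to 23.8 to 35.9 CPM in p16+ and 23.6 to 27.1 CPM in p16- (1 of 8 higher, 1 lower). Epithelial markers summed to at most 0.354 CPM in p16+ and 1.5 CPM in p16-, with Krt5 and Krt14 at 0 in every p16+ library. No gene of the marker lists was at 0 in all 6 libraries, and the part of these cells in the members' values was not tested.

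**Figure D3:**
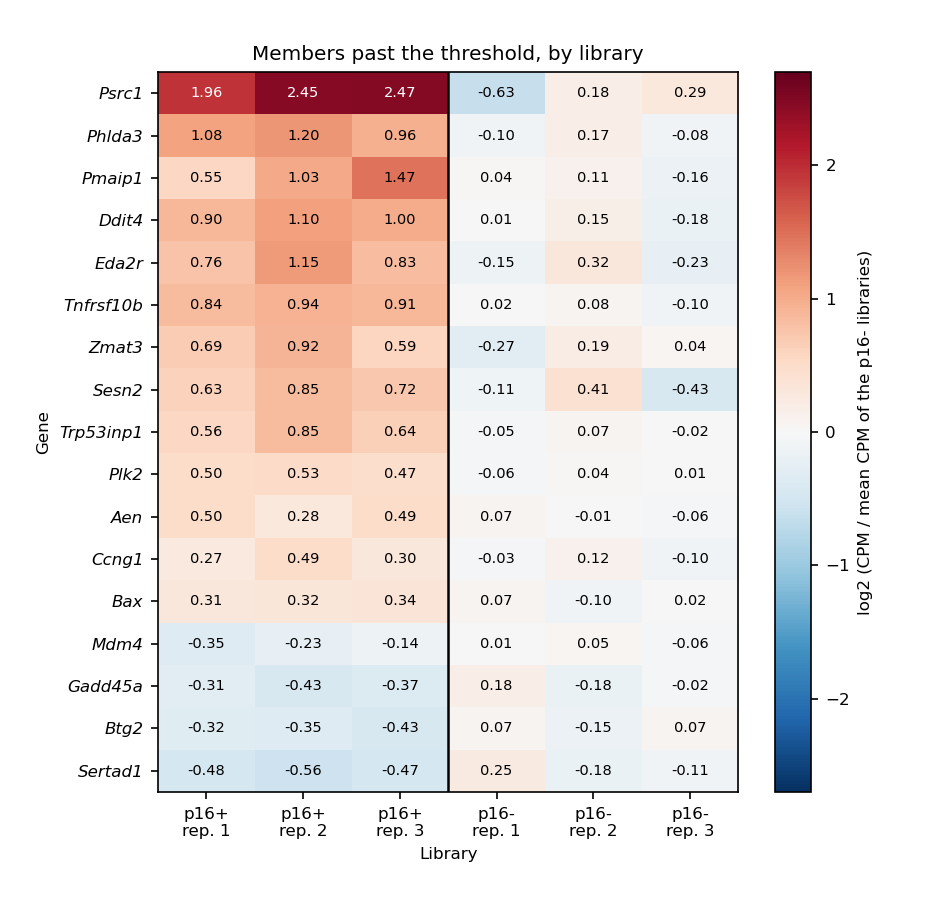
Level of the 17 genes that passed the test in each library (3 p16+ columns on the left, 3 p16- columns on the right), as log2 of CPM over the mean CPM of the p16- libraries. In p16+ the values run from 1.96 to 2.47 for Psrc1 and from -0.56 to -0.47 for Sertad1, and the p16- values of these genes lie nearer to 0.

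The 4 genes of DNA repair and nucleotide supply had log2 fold changes from -0.64 to -0.02, and none passed. Ddb2 encodes a subunit that finds ultraviolet lesions in chromatin, with Xpc the damage recognition factor that opens nucleotide excision repair. Ddb2 had 5.56, 4.08 and 4.03 CPM in p16+, against 8.46, 5.73 and 7.07 CPM in p16- (log2 fold change -0.64 with SE 0.21, adjusted p = 0.0552). Every p16+ library lay below every p16- library, if narrowly, and the gene passed as lower when p16+ replicate 1 (adjusted p = 0.0339) or p16- replicate 2 (0.0335) was left out, and under 5 other settings, DESeq2 among them (0.0393). Of its exonic length 23.8% is overlapped by Acp2 on the other strand, and the counting did not use strand. Xpc had 15.4, 10.5 and 12.4 CPM in p16+, against 19.7, 13.7 and 16.3 CPM in p16- (log2 fold change -0.37, adjusted p = 0.142). Rrm2b, which encodes a p53-inducible subunit of ribonucleotide reductase, had 15.8, 12 and 11.9 CPM in p16+, against 16, 18.2 and 15.1 CPM in p16- (log2 fold change -0.31, adjusted p = 0.159), with an adjusted p of 0.0498, past the threshold, once p16+ replicate 1 was left out. The groups overlapped in Xpc and Rrm2b, and Polk, a translesion polymerase gene, averaged 12.3 ± 1.27 in p16+ and 12.5 ± 0.735 CPM in p16- (mean ± SD, n = 3 each; adjusted p = 0.943).

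Among the secreted and detoxification genes, Gdf15, a stress cytokine gene often measured as a senescence product, was low and scattered. It had 4.48, 2.56 and 4.56 CPM in p16+, against 4.57, 2.09 and 2.55 CPM in p16- (log2 fold change 0.33 with SE 0.32, adjusted p = 0.568). Replicate 1 of p16- was as high as the p16+ libraries. Ephx1, the microsomal epoxide hydrolase gene, had 97.7, 95.9 and 89.2 CPM in p16+, against 106, 111 and 108 CPM in p16-, without overlap (log2 fold change -0.20 with SE 0.07, adjusted p = 0.0816). It was called lower with library sizes alone (adjusted p = 0.015). Dcxr, a carbonyl reductase gene, averaged 8.02 ± 0.536 in p16+ and 7.54 ± 0.649 CPM in p16- (mean ± SD, n = 3 each; adjusted p = 0.78).

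**Figure D4:**
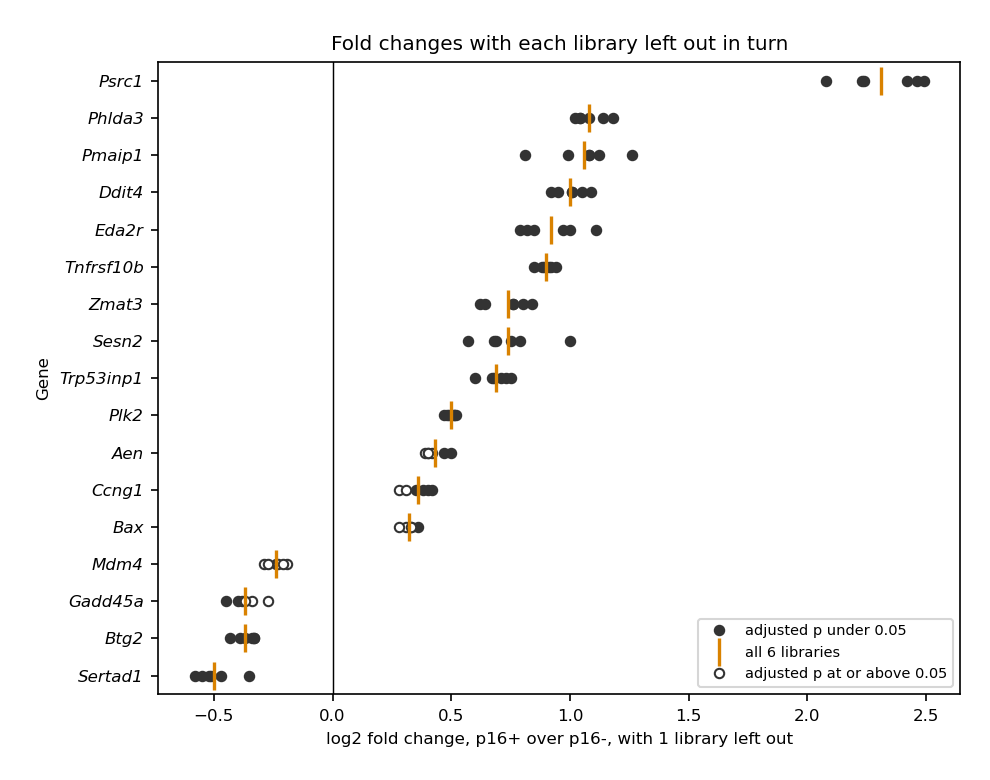
Log2 fold change, p16+ over p16-, of the 17 genes that passed the test, refitted without each of the 6 libraries in turn. Filled points had an adjusted p under 0.05, open points did not, and the orange bars are the values with all 6 libraries; Psrc1 runs from 2.08 to 2.49 and Mdm4, all open, from -0.29 to -0.19.

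A further list held 41 upstream kinases, cofactors and targets of p53 that are not among the 34. Of its 38 tested genes 7 were higher in p16+ (18.4%) and 4 were lower (10.5%), with a median log2 fold change of -0.01. Cdkn1a, which encodes the arrest protein p21, averaged 190 ± 2.07 in p16+ and 138 ± 5.49 CPM in p16- (mean ± SD, n = 3 each; log2 fold change 0.46 with SE 0.07, adjusted p = 0.000277). The kinase genes Atm, Atr, Chek1 and Chek2, which signal DNA damage to p53 and are likewise named outside the rule, did not pass, with log2 fold changes of 0.00, 0.02, 0.09 and 0.27. Ppp1r13l, which encodes the p53 inhibitor iASPP, rose by 0.93 on the log2 scale (adjusted p = 0.00115) and Cd82, a tetraspanin gene, by 0.86 (adjusted p = 3.28e-05). Gtse1, whose protein counters p53 in G2 phase, had means of 2.47 in p16+ and 0.887 CPM in p16- (log2 fold change 1.47, adjusted p = 0.0162; 0.0636 without p16+ replicate 3 and 0.0528 without p16- replicate 1). Ckap2, a spindle protein gene, had means of 3.83 in p16+ and 2.07 CPM in p16- (log2 fold change 0.89, adjusted p = 0.0492), and its call was lost without p16+ replicate 1, 2 or 3 (adjusted p = 0.0931, 0.108 and 0.129) and without p16- replicate 1 or 3 (0.133 and 0.171). The sums of the dividing cell markers given beside Psrc1 apply to Gtse1 and Ckap2 as well, and their part was not tested. Ppm1d, the gene of the Wip1 phosphatase that inactivates p53, fell by 0.50 on the log2 scale (adjusted p = 0.029). Its adjusted p was 0.11 and 0.104 without p16+ replicates 2 and 3, and 0.0737 and 0.109 without p16- replicates 2 and 3. The other genes past the test, named after their values were seen, were Fdxr and Casp8, which rose by 0.49 and 0.35 on the log2 scale (adjusted p = 0.00871 and 0.0349), and Kat5, Sirt1 and Steap3, which fell by 0.38, 0.40 and 0.35 (adjusted p = 0.0206, 0.0229 and 0.00378). With p16+ replicate 3 left out 3 of these genes were higher, and with p16- replicate 1 left out 4 were. With p16+ replicate 2 left out 1 was lower, and with p16+ replicate 3 or p16- replicate 3 left out 2 were.

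A list of 21 family relatives and partners of the members had 7 of 20 tested genes higher in p16+ (35%) and 1 lower (5%). Ddit4l, the paralog of Ddit4, averaged 29.2 ± 1.56 in p16+ and 14.1 ± 2.33 CPM in p16- (mean ± SD, n = 3 each; log2 fold change 1.05, adjusted p = 2.45e-05). Phlda1, a relative of Phlda3, averaged 122 ± 12.9 in p16+ and 192 ± 35.3 CPM in p16- (log2 fold change -0.65, adjusted p = 0.000785), and 33.0% of its exonic length is overlapped on the opposite strand. Rrm2, the S phase relative of Rrm2b, averaged 6.07 ± 0.847 in p16+ and 2.88 ± 0.525 CPM in p16- (log2 fold change 1.07, adjusted p = 0.0039). The sums of the dividing cell markers given beside Psrc1 apply to Rrm2 as well, and their part was not tested. The Bax relatives Bak1 and Bok rose by 0.51 and 0.67 on the log2 scale (adjusted p = 0.00598 and 0.0104). Of the exonic length of Bak1 25.5% is overlapped on the opposite strand, and Bok had an adjusted p of 0.0765 without p16+ replicate 1. The other relatives past the test, named after their values were seen, were Gadd45b, Ddb1 and Rrm1. These rose by 0.34, 0.31 and 0.32 on the log2 scale (adjusted p = 0.0484, 0.00806 and 0.0361), with overlapping groups in Gadd45b. The number of relatives higher was 4 without p16+ replicate 2, and the number lower was 2 without p16- replicate 2.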

How the data were processed

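The authors deposited whole-number counts of fragments per gene for 6 libraries. Per the file headers, they were made with featureCounts 1.6.0 on exons of GENCODE vM21, with read pairs counted as fragments and no strand option. STAR 2.7.3a and GRCm38.p6 are named in the submitters' processing notes. All 55536 identifiers, starts and ends matched vM21, from which symbols were taken.

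The default filterByExpr filter kept 15903 genes. TMM factors, CPM on effective library sizes and the quasi-likelihood test (group alone, robust) were from edgeR 4.0.16 in R 4.3.3. Fold changes are p16+ over p16-, and the threshold was an adjusted p of 0.05. The fitted common dispersion corresponded to a biological coefficient of variation of 0.158. An exact permutation test of 3 against 3 libraries cannot go below p = 0.1. Alternatives used RLE, upper-quartile or no factors, no filter or CPM of at least 1 in 3 libraries, DESeq2 1.42.0, limma-voom 3.58.1, a replicate block, and each library left out. The fit was tested on simulated data.

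Members and lists were chosen with earlier results of these data known. The TruSeq V2 kit of the labels' protocols does not mark strand, so overlapping genes on opposite strands are not separated. All members and the relatives and further pathway genes past the threshold with an absolute log2 fold change of at least 0.5 are named, plus Cdkn1a. The genes of these lists past the threshold with smaller changes were named after their values were seen.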

Additional observations from a re-analysis of the deposited data

How the results depend on the processing

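Of the 17 members that passed, 12 kept their call under all 14 alternatives, and the exceptions were Mdm4, Ccng1, Bax, Gadd45a and Aen. Of the 17 that did not pass, 9 kept their direction and had no call under any alternative that gave a value. The number of members higher was 10 to 13 with a library left out. The number lower was 7 with library sizes alone, and 2 to 6 with a library left out. Among family relatives, the number lower was 2 with library sizes alone or without the filter on low counts, and 1 to 2 with a library left out, while the number higher was 4 to 7. Among further pathway genes 3 to 8 were higher and 1 to 4 lower with a library left out. Among handling response genes 1 was higher without the filter, and 0 to 1 with a library left out. Among endothelial markers 1 to 4 were higher with a library left out. Mdm4 had an adjusted p of 0.0537 with RLE factors and 0.0601 without the filter. With a library left out the log2 fold change of Plk3 ran from -0.22 to 0.02, that of Polk from -0.09 to 0.05 and that of Apaf1 from -0.05 to 0.03, so their signs turned. Perp was not tested under the stricter filter. The cause of these shifts was not tested. Perp had 7 to 10 counts per library in p16+ and 14 to 25 in p16-, the fewest of the members.

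The replicate numbers of the titles are not stated to pair libraries, and deviations from the group means correlated at 0.0284, 0.0821 and -0.0046 between same-numbered libraries over the genes tested. Replicate 1 of p16+ correlated best with p16- replicate 3 (0.0394). With the replicate block 13 members were higher and 7 lower, 2 relatives were lower, and Ddb2, Xpc and Ephx1 were called lower with adjusted p of 0.0331, 0.0436 and 0.0497.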

Other observations

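The median coefficient of variation over the members was 8.55% in p16+ and 9.32% in p16-, against 11.2% and 12.1% over all genes tested. The members were not matched with these genes for level. The steadiest member in p16+ was Ei24 at 0.604%, and the most variable in p16- was Gdf15 at 42.9%. Replicate 2 of p16- was the highest library of its group for 20 of the 34 members and replicate 3 for 4. The same count was not made over all genes tested.

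Per kilobase of exon, Sertad1 stood at 87.1 CPM per kb in p16+ and 123 CPM per kb in p16-, Ddit4 at 55.8 and 27.8, and Phlda3 at 46.1 and 21.8, in the same order of groups. Ephx1, at 48.3 CPM per kb in p16+ and 55.5 in p16-, lay between them in p16+. At the lower end, Pidd1 had 0.482 CPM per kb in p16+ and 0.40 in p16-, and Perp 0.124 and 0.231.

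The promoter windows of the members were rich in G and C, with a median of 62.0% over 34 windows of 26 genes, against 52.7% over all windows. The GC box GGGCGG was present on either strand in 21 of 26 members (80.8%), against 38.2% of all genes with a window. The letters TATAAA in the 50 bases before the start, on the sense strand, were in 0 of 26 members, against 3.15% of all genes. The genes with a window include genes not tested for expression, while all members were tested.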
